A study of Mus musculus with 6 samples.

Results

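Tanycyte and radial glia-like marker genes were examined in the arcuate nucleus (ARC) of male mice on a normal-chow diet (NCD) or a high-fat diet (HFD). The genes are *Rax*, *Vim*, *Nes*, *Gpr50*, *Lhx2*, *Sox2* and *Frzb*, 7 of the 22322 genes of the deposited table, and they were chosen by name. Feeding began at 4 weeks of age and lasted 16 weeks, with 16.5% fat in NCD and 60% in HFD. The ARC was cut by laser from frozen brain sections 20 μm thick, and its mRNA was sequenced in 3 samples per diet, named here by diet and number. The titles mark the samples only with C or H, read here as NCD and HFD, and the authors' mean columns, which name the diets, equalled the means of these samples within 0.01 FPKM for all 22322 genes. The area that was cut is the one where Kiss1 neurons lie, which the study located by crossing Kiss1-Cre mice to an R26R-EYFP reporter. The labels give neither strain nor genotype, the study's wild-type mice were C57BL/6J, and whether the sequenced mice carried the Cre and reporter alleles is not given in the sources used here. They also do not say whether a sample held 1 mouse or several, so that p-values describe the spread between these samples, which may be technical. Total counts were 15925648 in NCD1, 9937632 in NCD2, 6882449 in NCD3, 8024664 in HFD1, 10479778 in HFD2 and 5171381 in HFD3.

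Tanycytes are elongated glial cells of ependymal origin that line the floor and the lower walls of the third ventricle. Their long processes reach into the ARC and the median eminence, where they meet neurons and blood vessels. They pass hormones and nutrients between blood, cerebrospinal fluid and brain, convert thyroid hormone, and keep features of the radial glia of the embryo, including the ability to divide and give rise to new cells. Tissue cut from the ARC by laser contains the cells of that area together, so that fewer tanycytes and less RNA per tanycyte cannot be told apart in these samples.

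All 7 marker genes were detected in every sample, and all 7 passed the filter on low counts. Levels of a gene in each sample are given as CPM, its count scaled to the effective size of the library, and differences as the log2 of HFD over NCD. None of the 7 passed the test between the diets in edgeR's quasi-likelihood test with Benjamini-Hochberg adjustment, where 0.0564% of the 14188 genes tested did (adjusted p under 0.05). None had an unadjusted p under 0.05 either, against 2.30% of all genes tested (1.21% higher and 1.09% lower in HFD), and DESeq2 and limma gave 0 members at both thresholds. The log2 fold change of HFD against NCD was above 0 for each of the 7, from 0.15 for *Nes* to 0.71 for *Lhx2*, with a median of 0.38, while it was above 0 for 50.5% of all genes tested, whose median was 0.00. The 7 values come from the same 6 samples and are not 7 separate observations of the diet. Their shared direction depended on the fit, since *Nes*, *Sox2* and *Frzb* each turned below 0 in at least 1 alternative. Their median was 0.17 without HFD3 and 0.14 with the log2 total count in the fit. The members shared an order among the HFD samples. HFD2 was the lowest HFD sample for 7 of 7 members, which was the case for 37.3% of all genes tested. HFD3 was the highest for 5 and HFD1 for 2. In NCD, NCD3 was the highest sample for 6 and NCD1 for 1, and the share of all genes was not computed. HFD3 and NCD3 were the smallest libraries of their diets. The highest over the lowest CPM was larger in HFD than in NCD for each member, but close for *Frzb* (2.44 and 2.35) and *Sox2* (2.6 and 2.27).

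**Figure D1:**
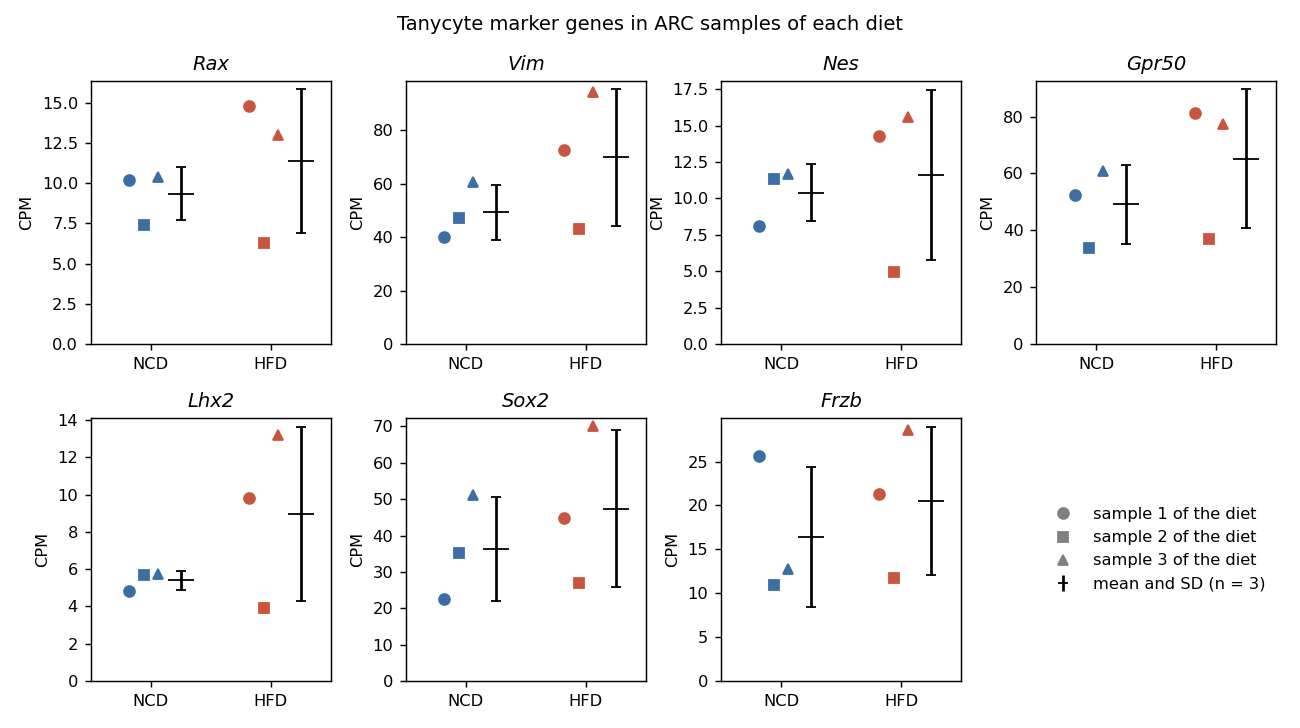
Each panel shows 1 gene in CPM (from 0) for the 3 NCD samples and the 3 HFD samples, with the mean and SD beside them. The square of HFD2 lies under the other HFD samples in all 7 panels, and the diets overlap in every panel.

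Levels between genes were compared per length, with the deposited FPKM values (fragments scaled by transcript length and library size). *Vim* was the most abundant member at 27.3 ± 10.1 FPKM (SD over the 6 samples), followed by *Sox2* at 20.3 ± 8.72 FPKM and *Gpr50* at 18.7 ± 6.7 FPKM. *Rax* had a level of 6.19 ± 1.98 FPKM, *Frzb* of 5.92 ± 2.62 FPKM, *Lhx2* of 2.78 ± 1.82 FPKM and *Nes* of 1.82 ± 0.674 FPKM. The members therefore fell into a higher set of 3 and a lower set of 4, since the FPKM ranges of *Gpr50* (10.9 to 26.5) and *Rax* (3.65 to 8.78) did not overlap. Neighbours within these sets had overlapping ranges. *Sox2* was above *Gpr50* in 4 of 6 samples and *Rax* above *Frzb* in 4 of 6, so that their order was not the same in all samples, whereas *Vim* was above *Sox2*, *Frzb* above *Lhx2* and *Lhx2* above *Nes* in 6 of 6.

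**Figure D2:**
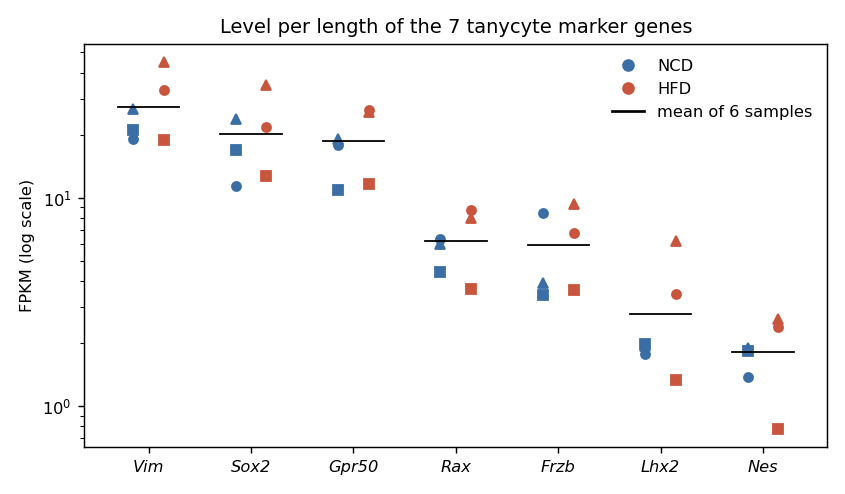
FPKM on a log scale for the 7 genes in the order of their mean (black line), with NCD samples in blue and HFD samples in red and the marker shapes standing for the sample number (circle 1, square 2, triangle 3). *Gpr50* and *Rax* are the neighbours whose ranges are apart.

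The transcription factors of the set are *Rax*, *Lhx2* and *Sox2*. *Rax* encodes a homeodomain protein of the developing eye and hypothalamus that marks tanycytes in the adult, and it lies on chromosome 18 from 65928277 to 65939787 (minus strand; GRCm38, as are all positions here). Its level was 10.2, 7.43 and 10.4 CPM in NCD1 to NCD3 and 14.8, 6.31 and 13.0 CPM in HFD1 to HFD3. HFD1 and HFD3 were above all NCD samples and HFD2 was the lowest of the 6, so that the diets overlapped. *Rax* had a fold change of 0.27 on the log2 scale (standard error 0.34, 95% interval -0.46 to 1.01, adjusted p = 0.999 in edgeR), an interval that runs from 0.726-fold to 2.01-fold. The exons of *Rax* share 1604 bases with those of the antisense gene *Raxos1*, and reads from the pair cannot be told apart without strand.

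*Lhx2* encodes a LIM-homeodomain protein that is needed for tanycyte identity and for the forebrain (chromosome 2, 38339281 to 38369733, plus strand). It was at 4.82, 5.7 and 5.72 CPM in NCD1 to NCD3, the narrowest NCD range of the 7 genes, and at 9.82, 3.94 and 13.2 CPM in HFD1 to HFD3. The highest HFD sample was 3.34 times the lowest, against 1.19 times in NCD, and HFD2 lay below every NCD sample. The log2 fold change of *Lhx2* was the highest of the members, 0.71 (standard error 0.41, 95% interval -0.17 to 1.60, adjusted p = 0.999). Its counts were low, and counting error alone was 16.2% in the library with the fewest *Lhx2* counts.

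*Sox2* encodes the SoxB1 factor of neural stem cells and many glial cells, and it is not specific to tanycytes (chromosome 3, 34650405 to 34652461, plus strand). It was at 22.5, 35.2 and 51.2 CPM in NCD1 to NCD3 and at 44.9, 26.9 and 70.0 CPM in HFD1 to HFD3. The diets overlapped across most of this range, with the lowest value in NCD1 and the highest in HFD3. Between the diets, *Sox2* differed by 0.38 on the log2 scale (standard error 0.35, 95% interval -0.37 to 1.14, adjusted p = 0.999). This value was -0.01 without HFD3, 0.11 without NCD1 and 0.71 without NCD3, and -0.13 with the log2 total count in the fit. The related SoxB1 genes *Sox1* and *Sox3* both had a log2 fold change of 0.05 (standard errors 0.26 and 0.47), and neither had an unadjusted p under 0.05. *Sox1* was at 6.52 FPKM and *Sox3* at 1.78 FPKM on average, below *Sox2*.

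RefSeq gives promoter sequences (GRCm38.p6, 250 bases before to 50 after a transcript start) for *Vim*, *Lhx2*, *Frzb*, *Sox2*, *Nes* and *Gpr50*, 7 windows in all because *Lhx2* has 2 starts. *Rax* was not analysed here. They were searched on both strands for TAATTA, the core that homeodomain proteins such as Rax and Lhx2 bind, and for ACAAAG, a core bound by Sox proteins. No window held TAATTA, which is present in 5.29% of the 32851 promoters of the table. The *Sox2* window was the only member window with ACAAAG, which 18.7% of all promoters hold. It is shown here, without the transcribed bases, for this match to the protein family that *Sox2* itself belongs to; the capitals mark the match, which begins 206 bases before the start, and the region is chr3:34649745-34649994, plus strand. This start is that of RefSeq, which lies upstream of the GENCODE start of *Sox2* given above:
*Sox2* upstream: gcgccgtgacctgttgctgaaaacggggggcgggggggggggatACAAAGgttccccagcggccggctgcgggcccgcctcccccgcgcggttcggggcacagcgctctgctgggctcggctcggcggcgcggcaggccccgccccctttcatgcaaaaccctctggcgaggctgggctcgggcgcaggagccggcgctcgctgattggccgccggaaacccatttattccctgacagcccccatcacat
The 7 windows had a GC content from 57.3% to 74.7%, against a median of 52.7% over all promoters. A match is a description of the letters and not a site, and the absence of one is limited to these windows.

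The intermediate filament genes of the set are *Vim* and *Nes*, which encode vimentin and nestin, the filament proteins of radial glia and tanycytes. Both are also found in vascular cells, and vimentin in fibroblasts. *Vim* (chromosome 2, 13573927 to 13582826, plus strand) was at 40.2, 47.3 and 60.5 CPM in NCD1 to NCD3 and at 72.5, 43.0 and 94.3 CPM in HFD1 to HFD3. HFD1 and HFD3 were above all NCD samples, and HFD2 was between NCD1 and NCD2. For *Vim* the log2 fold change was 0.50 (standard error 0.28, 95% interval -0.10 to 1.10, adjusted p = 0.999).

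*Nes* (chromosome 3, 87971078 to 87980451, plus strand) was at 8.13, 11.3 and 11.7 CPM in NCD1 to NCD3 and at 14.3, 4.93 and 15.6 CPM in HFD1 to HFD3. The HFD samples lay on both sides of the NCD samples, with HFD2 below and HFD1 and HFD3 above all of them. The NCD mean was 10.4 ± 1.97 CPM and the HFD mean 11.6 ± 5.83 CPM (SD of 3 samples), and the log2 fold change of 0.15 (standard error 0.39, 95% interval -0.69 to 0.99, adjusted p = 0.999) was the lowest of the members. This value turned with single samples, and it was -0.11 without HFD3, -0.04 without HFD1 and -0.02 without NCD1.

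Of 8 other intermediate filament genes, all tested, none had an adjusted p under 0.05 and 1 had an unadjusted p under 0.05. This was *Gfap*, the filament gene of astrocytes, at 217, 207 and 83.1 CPM in NCD1 to NCD3 and 406, 328 and 198 CPM in HFD1 to HFD3 (log2 fold change 0.88, standard error 0.35, adjusted p = 0.999). Its HFD2 value was above every NCD sample, unlike that of *Vim* and *Nes*, and the diets overlapped only through HFD3. *Synm*, whose product synemin assembles with vimentin, was at 0.06 on the log2 scale (standard error 0.20). The most abundant of these genes was the neuronal *Nefl* at 126 FPKM (log2 fold change -0.17), and the lowest fold change was that of *Des* (-0.46, standard error 0.57), the desmin gene of muscle and mural cells. The median of the 8 was -0.01.

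*Gpr50* encodes an orphan receptor related to the melatonin receptors, is on the X chromosome (71663667 to 71669257, plus strand) and is expressed in tanycytes and the dorsomedial hypothalamus. It was at 52.6, 33.9 and 60.8 CPM in NCD1 to NCD3 and at 81.2, 37.0 and 77.5 CPM in HFD1 to HFD3. Sample 2 was the lowest in both diets, and HFD1 and HFD3 were above all NCD samples. Its log2 fold change was 0.41 (standard error 0.30, 95% interval -0.25 to 1.06, adjusted p = 0.999). The melatonin receptor genes themselves were too low to test: *Mtnr1a* had from 0 to 7 counts per sample, and *Mtnr1b* had 0 counts in all 6, where 3 counts correspond to 0.181 CPM in the largest library and 0.564 CPM in the smallest.

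*Frzb* encodes a secreted protein that binds Wnt ligands and holds them from their receptors, and it marks a part of the tanycytes (chromosome 2, 80411970 to 80447625, minus strand). It was at 25.6, 10.9 and 12.8 CPM in NCD1 to NCD3 and at 21.3, 11.7 and 28.6 CPM in HFD1 to HFD3. In NCD1 *Frzb* was the member farthest above its mean, while 5 of the other 6 were below theirs, so that *Frzb* departed from the shared pattern in that sample. Across the diets, *Frzb* had a log2 fold change of 0.29 (95% interval -0.51 to 1.10, standard error 0.37, adjusted p = 0.999), and it was 0.77 without NCD1 and -0.01 without HFD3. Of 9 other secreted Wnt antagonists 6 were tested, none had an unadjusted p under 0.05, and 4 of the 6 were lower in HFD (median log2 fold change -0.29). They ranged from *Wif1* at -0.76 (standard error 0.53) to *Sfrp4* at 0.34 (standard error 0.37), and *Dkk3*, the most abundant at 24.8 FPKM, was at 0.05.

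**Figure D3:**
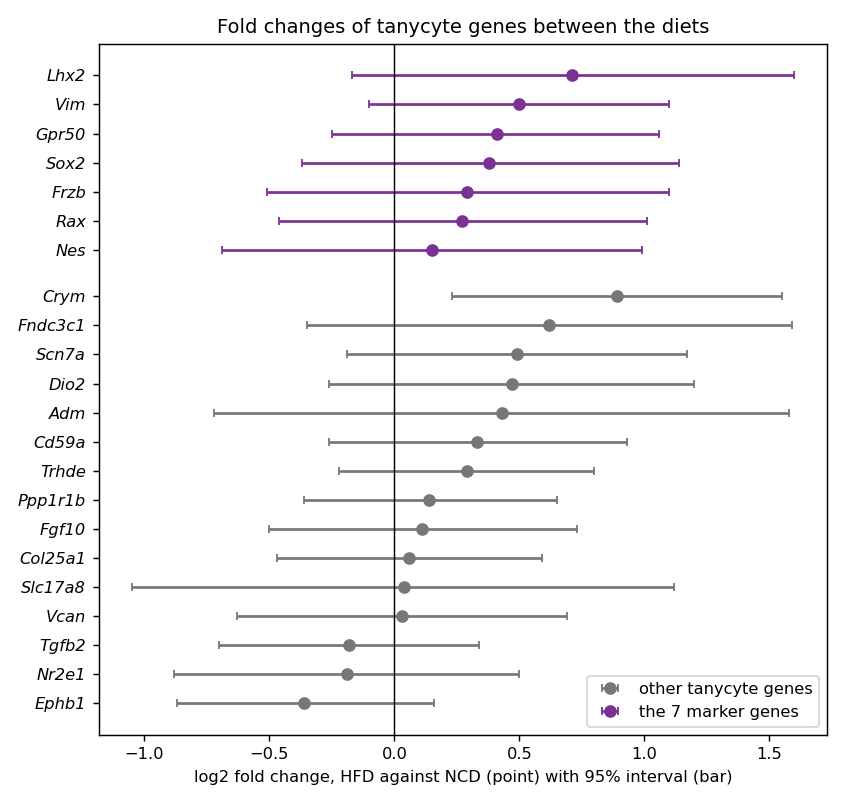
Log2 fold change of HFD against NCD (points) with the 95% interval (bars) for the 7 marker genes (purple) and for other tanycyte genes of the list (grey), each set ordered by its values. All 7 purple intervals include 0, and *Crym* is the grey gene whose interval (0.23 to 1.55) does not.

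The distance between the diets depended on HFD2. As HFD2 was the lowest HFD sample for all 7 members, leaving it out raises their fold changes by construction. The p-values without HFD2 are therefore a description only. Without it, *Lhx2* had a log2 fold change of 1.09, *Vim* of 0.76 and *Gpr50* of 0.69, and these were 3 of the 7 members with an unadjusted p under 0.05, all higher in HFD, where 4.60% of the 14314 genes tested had one (2.75% higher in HFD). Their adjusted p in edgeR was 0.892 each, as for the other members, and 0.00699% of all genes passed. Without NCD3, *Vim* (0.68) was the 1 member with an unadjusted p under 0.05, against 8.13% of 14489 genes tested (5.02% higher in HFD), and no member passed after adjustment, against 0.110%. When the fit had a block for the replicate number, *Vim* was again the 1 member with an unadjusted p under 0.05, against 4.15% of all genes (2.42% higher in HFD), and no member passed after adjustment, against 0.120%. Without HFD3 the 7 fold changes were lower, from -0.11 for *Nes* to 0.34 for *Lhx2*, with 0.23 for *Vim* and 0.27 for *Gpr50*. *Gpr50* was also lower without NCD2 (0.20) and without HFD1 (0.21). The median of the 7 was 0.67 without HFD2, 0.59 without NCD3, 0.22 without NCD2 and 0.17 without HFD3. No member had diets that did not overlap, against 6.47% of all genes tested. The gene-wise coefficient of variation between samples of a diet, as edgeR estimated it, ranged from 0.243 for *Vim* to 0.338 for *Lhx2* with a median of 0.301, and the median over all genes tested was 0.229.

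**Figure D4:**
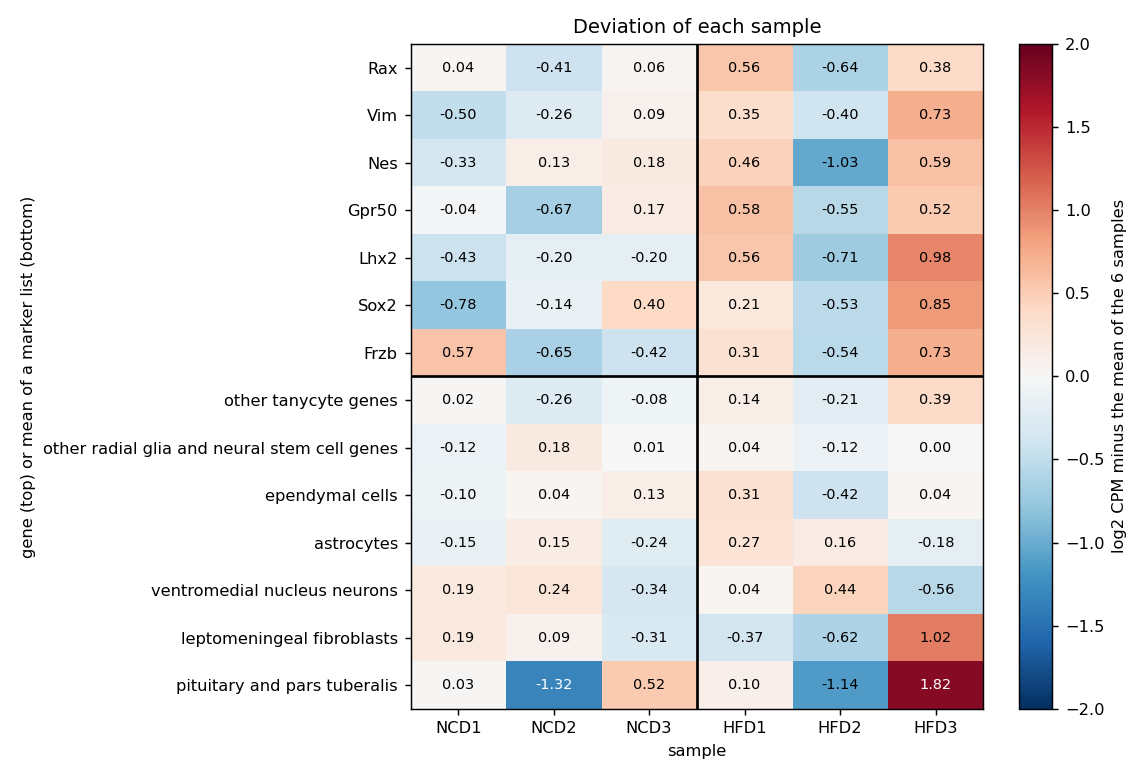
Rows are the 7 marker genes (top) and the means of marker lists (bottom), columns are the samples, and each cell gives log2 CPM minus the mean of the 6 samples (red above, blue below). HFD2 is negative for all 7 members, from -1.03 for *Nes* to -0.40 for *Vim*, and HFD3 is positive for all 7, with 0.98 for *Lhx2* as the highest.

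The level of the members was also set against library size, since the libraries differed in it. *Sox2* had a Pearson's r of -0.975 between log2 CPM and log2 total count (exact permutation p = 0.00417, 0.0554 after adjustment over all 14188 genes tested) and a Spearman's rho of -1 (exact permutation p = 0.00278, adjusted 0.0555). For *Vim* r was -0.908 (exact permutation p = 0.0125, adjusted 0.083) and rho was -0.943 (exact permutation p = 0.0167, adjusted 0.102). By r, 2 of 7 members had an unadjusted p under 0.05, both negative, while 29.0% of all genes tested had one (14.2% with a negative r). By rho these were 4 of 7, all negative (*Sox2*, *Vim*, *Nes* and *Lhx2*), against 22.9% of all genes (11.3% negative). No member had an adjusted p under 0.05 by either measure, and the members share the same 6 samples. By r, 427 of the 14188 genes tested had one. By rho 0 of the 14188 had one, even at a rho of -1, the lowest possible value, so rho could not call any member. When the largest and the smallest library (NCD1 and HFD3, farthest from the median) were left out, r was -0.952 for *Sox2*, -0.798 for *Vim*, -0.796 for *Gpr50*, -0.748 for *Rax*, -0.66 for *Nes*, -0.515 for *Lhx2* and -0.445 for *Frzb*. The other 5 members had r from -0.752 (*Lhx2*) to -0.126 (*Frzb*), with adjusted p of 0.222 or more for r and of 0.146 or more for rho (exact permutation tests). Values within a diet rest on 3 samples, too few for a correlation. When edgeR was given the log2 total count as a further term, the log2 fold changes were 0.35 for *Frzb*, 0.27 for *Lhx2*, 0.19 for *Gpr50*, 0.14 for *Vim*, 0.11 for *Rax*, -0.13 for *Sox2* and -0.28 for *Nes*, of which that of *Frzb* was above and the other 6 were below those without the term, and none of the 7 had an unadjusted p under 0.05. The part of library size in the difference between the diets was not tested beyond this fit.

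**Figure D5:**
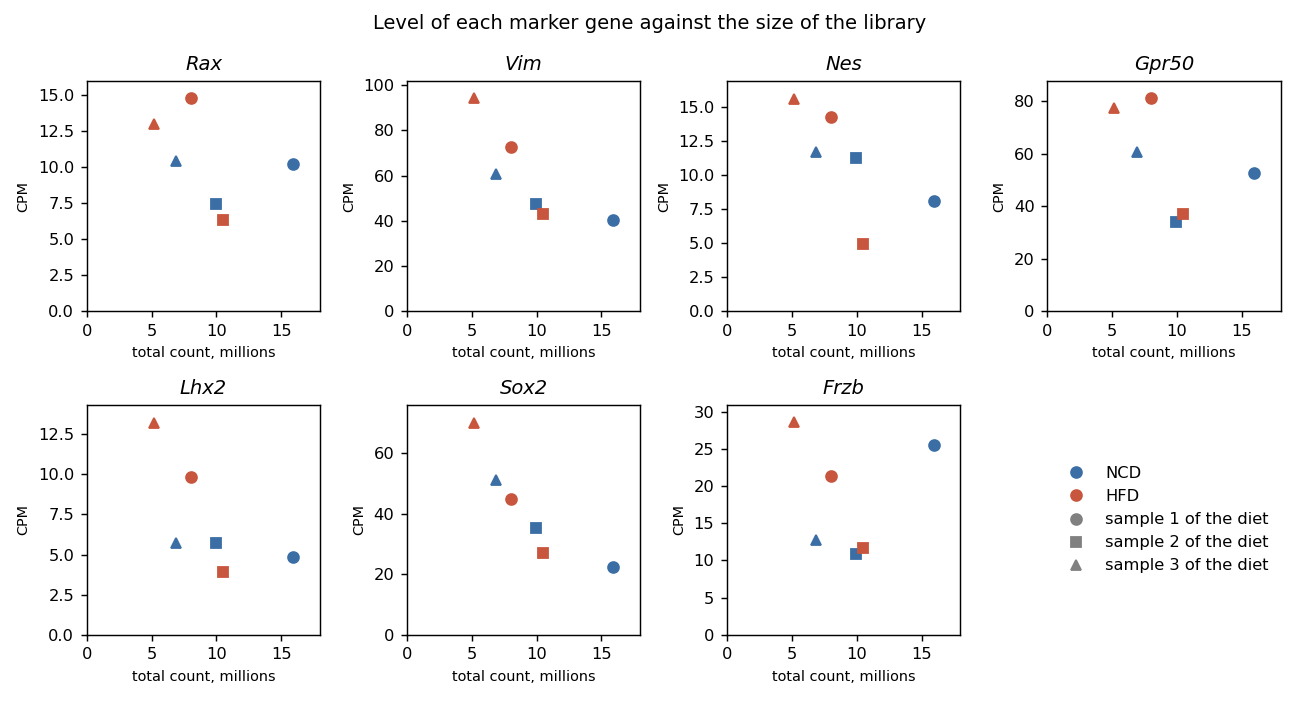
CPM of each marker gene (vertical axis, from 0) against the total count of the library (horizontal axis, from 0), with NCD in blue, HFD in red and the shapes for the sample numbers. *Sox2* is ordered from the smallest library (highest) to the largest (lowest) across both diets, whereas *Frzb* is high in both the smallest library (HFD3) and the largest (NCD1).

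The other 16 tanycyte genes on the list were all tested. None had an adjusted p under 0.05, 1 had an unadjusted p under 0.05, and 13 had a log2 fold change above 0, with a median of 0.17 that was -0.05 without HFD3 and 0.31 without HFD2. The 1 gene was *Crym*, which encodes a thyroid hormone-binding protein, at 17.5, 9.16 and 14.1 CPM in NCD1 to NCD3 and 30.1, 16.7 and 29.5 CPM in HFD1 to HFD3. Its HFD2 value lay just under that of NCD1, so that the diets overlapped (log2 fold change 0.89, standard error 0.30, adjusted p = 0.999). *Dio2*, the deiodinase gene whose product activates thyroid hormone, had a value of 0.47 on the log2 fold scale (standard error 0.34), with 7.53, 5.8 and 12.8 CPM in NCD1 to NCD3 and 12.6, 9.07 and 14.3 CPM in HFD1 to HFD3. HFD2 was the lowest HFD sample for *Dio2* too, and the diets overlapped. This order held for most of the list but not for all of it. *Trhde* was at 17.8, 24 and 18.8 CPM in HFD1 to HFD3. HFD2 was also not the lowest HFD sample for *Ppp1r1b*, *Col25a1*, *Cd59a*, *Vcan* and *Ephb1*. It was the lowest for the rest of the list, while it was the lowest for 37.3% of all genes tested. *Ppp1r1b*, the most abundant of the list at 23.0 FPKM and also a gene of neurons, had 0.14 (standard error 0.23), and the lowest fold change was that of *Ephb1*, an ephrin receptor gene, with -0.36 (standard error 0.24).

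Among 12 other genes of radial glia and neural stem cells, none had an unadjusted p under 0.05, 3 were above 0 and 9 below, and the median log2 fold change was -0.06. They ranged from *Gli3*, a mediator of hedgehog signaling, at -0.35 (standard error 0.31) to *Hes5*, a Notch target, at 0.22 (standard error 0.25). *Slc1a3*, a glutamate transporter gene that astrocytes share, was the most abundant at 194 FPKM and was at -0.22 on the log2 fold scale (standard error 0.23). The mean of the list was within 0.18 of 0 on the centred log2 scale in every sample, where genes that differ in direction can cancel. Of 7 homeobox genes of the hypothalamus none had an unadjusted p under 0.05, with a median log2 fold change of 0.25 and a range from -0.16 (*Six6*) to 0.59 (*Otx2*). *Isl1*, the most abundant of these at 30.2 FPKM, had 0.14 (standard error 0.20).

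Markers of cells next to the tanycytes varied between the samples too. The 8 ependymal genes, whose cilia-bearing cells line the ventricle above the tanycytes, summed to 223, 289 and 323 CPM in NCD1 to NCD3 and to 347, 218 and 260 CPM in HFD1 to HFD3. None of them had an unadjusted p under 0.05, and the median log2 fold change was -0.08, from -0.25 (*Ak7*) to 0.37 (*Dynlrb2*), with *Ccdc153* as the most abundant at 92.3 FPKM (log2 fold change -0.19). HFD2 had the lowest ependymal sum, as it had the lowest summed level of the 7 members, 134 CPM against 259 and 312 CPM in HFD1 and HFD3 and 164, 152 and 213 CPM in NCD1 to NCD3. The 3 genes of the ventromedial nucleus, the neighbouring neuron group, were the other way round in HFD, with 345 CPM in HFD2 against 267 CPM in HFD1 and 194 CPM in HFD3 (294, 268 and 238 CPM in NCD1 to NCD3; median log2 fold change 0.02, none with an unadjusted p under 0.05). Their extremes were *Nr5a1* at -0.19 and *Adcyap1* at 0.05, the latter the most abundant at 62.7 FPKM.

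In HFD3, the smallest library, the members were high together with markers of tissue at the base of the brain and of ARC neurons. On the centred log2 scale the mean in HFD3 was 0.68 for the members and 0.62 for the ARC neuron list. It was 1.82 for the pituitary and pars tuberalis list and 1.02 for the leptomeningeal list. Each of these was the highest of the 6 samples. Other lists went the other way, with -0.56 for the ventromedial nucleus and -0.23 for oligodendrocytes. The 5 pituitary and pars tuberalis genes summed to 57.9 CPM in HFD3, against 17.4 and 11.3 CPM in HFD1 and HFD2 and 12.6, 5.19 and 19.4 CPM in NCD1 to NCD3. *Cga*, the hormone alpha subunit gene, was the most abundant of them at 24.9 FPKM and was at 48.0 CPM in HFD3. It was the 1 gene of this list with an unadjusted p under 0.05 (log2 fold change 1.36, standard error 0.54, adjusted p = 0.999). *Pitx1* was at 0.35, and *Gh* and *Prl*, the defining hormone genes of the pituitary itself, had 0 counts in all samples. The 5 genes of leptomeningeal fibroblasts, which also express *Vim*, summed to 142 CPM in HFD3 and to 43.1 to 67.0 CPM in the other samples, with *Dcn* as the most abundant at 23.2 FPKM (log2 fold change 0.65, standard error 0.36) and *Slc6a13* as the lowest fold change (-0.32); none of the 5 had an unadjusted p under 0.05. The part of these tissues in the levels of the members was not tested.

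By Pearson's r of log2 CPM over the 6 samples, the genes most like *Rax* among 10217 genes outside the lists whose mean count was 100 or more were *Sgsm2* (0.994), *Endov* (0.991), *Uso1* (0.990), *Ppp2r2d* (0.989) and *Pitpna* (0.979), and 0.509% of the candidates had an r above 0.9. The genes most like the mean of the 7 members were *Celsr3* (0.994), *Pcgf5* (0.991), *Pank3* (0.990), *Sptbn4* (0.984) and *Ccdc66* (0.983), with 1.43% above 0.9. These values describe 6 samples that differ in library size, and they were picked as the highest of many.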

How the data were processed

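The values come from 1 deposited table with 6 samples. The authors cleaned the reads, compared them with a ribosomal database (bowtie2), aligned them with HISAT2 to the mouse genome (mm10 per the labels) and derived whole-number read counts and FPKM values per gene with StringTie and RSEM; both were deposited for each sample. Versions, annotation release and strand setting are not given in the sources used here. The authors' mean FPKM columns served only to check the diet of each sample, and another 3 columns, their fold change, p-value and FDR, were not used.

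Identifiers were matched to GENCODE M21 (22267 of 22322). Counts were filtered with filterByExpr (14188 genes), scaled with TMM (0.967 to 1.04) and compared with edgeR 4.0.16 (glmQLFit, glmQLFTest, diet as the only term, Benjamini-Hochberg over all genes tested; R 4.3.3). Standard errors come from the F statistic. Log2 CPM used a prior count of 2. Alternatives were DESeq2 1.42.0, limma 3.58.1 on log2(FPKM + 1), RLE scaling, library totals, no filter, a mean of at least 50 counts, the replicate block, the log2 total count as a further term, and leaving out each sample, and the fit was tested on simulated data. A limit of 3 counts covers counting error only.

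The members and lists were chosen with earlier results of these data known. Named genes are the 7 members, and from each list those with p under 0.05, the most abundant, and the highest and lowest fold change; some were added after their values were seen (*Synm*, *Dio2*, *Gh*, *Prl*, *Kiss1*). Some genes of the lists are counted in their list's values but not reported here.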

Additional observations from a re-analysis of the deposited data

How the results depend on the processing

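The 7 fold changes were recomputed under 14 alternatives, 98 values in all, of which 91 kept the direction and none had an adjusted p under 0.05. The direction was turned for *Nes* and *Sox2* when the log2 total count was a further term (-0.28 and -0.13), and leaving out 1 sample in turn gave -0.11 to 0.53 for *Nes*, -0.01 to 0.71 for *Sox2* and -0.01 to 0.77 for *Frzb*, in each case lowest without HFD3; *Nes* was also below 0 without NCD1 (-0.02) and HFD1 (-0.04). The causes were not tested. *Rax*, *Vim*, *Gpr50* and *Lhx2* stayed above 0 in all 14, lowest for *Rax* without HFD1 (0.02). The number of members with an unadjusted p under 0.05 was 0, and it was 1 (*Vim*) with the replicate block and without NCD3, and 3 without HFD2 (range over samples left out 0 to 3). Over all genes tested, 8 had an adjusted p under 0.05, against 15 without the filter, 17 with the replicate block, 15 with that term, 19 in DESeq2, 5 in limma and 1 to 16 with 1 sample left out. Those with an unadjusted p under 0.05 numbered 326, against 589 with the block and 197 (without HFD1) to 1178 (without NCD3) with 1 sample left out. The order of the levels was the same in TPM computed from the FPKM values.

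The titles give the samples of both diets the numbers 1 to 3, but no source pairs them. Deviations from the group means correlated at -0.0116 for number 1, 0.113 for number 2 and 0.369 for number 3, so the block was kept as an alternative only. NCD1, HFD1 and HFD2 correlated better with a sample of another number. With the replicate block the log2 value of *Vim* was 0.45 (adjusted p = 0.995 in edgeR). In HFD3, the smallest library, 3 counts equal 0.564 CPM.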

Other observations

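The markers of other cells describe the RNA of the dissected area and not its cell numbers. In this section *Gfap*, *C1qa*, *Cldn5*, *Acta2*, *Cartpt*, *Tac2*, *Avp* and *Oxt* had an unadjusted p under 0.05 in edgeR, as had 2.30% of all genes tested. These were 2 of 8 ARC neuron, 2 of 2 magnocellular, 1 of 8 astrocyte, 1 of 6 microglia, 1 of 5 endothelial and 1 of 6 mural genes. Of 7 general neuron and 6 oligodendrocyte genes none had one. No gene of these lists had an adjusted p under 0.05, against 0.0564% of all genes. The lists were chosen with earlier results of these data known. For 8 ARC neuron genes the median log2 fold change was 0.43, from -0.36 (*Pomc*) to 0.75 (*Cartpt*, the most abundant at 749 FPKM, adjusted p = 0.999), and *Tac2* was at 0.60. All 8 were detected, but *Kiss1*, whose exons overlap those of *Gm28040*, had 0 counts in NCD1 and HFD1. The *Gm28040* entry that shares 498 exon bases with *Kiss1* had 70 counts in NCD1 and 99 in HFD1. In the other samples this entry had from 15 to 39 counts. The entry that shares 779 bases had 3 counts in NCD1 and 0 elsewhere. How reads were divided between these genes was not tested. The summed level of the list was 1281, 2271 and 1555 CPM in NCD1 to NCD3 and 1931, 1813 and 2182 CPM in HFD1 to HFD3. *Avp* and *Oxt*, genes of magnocellular neurons, were lower in every HFD sample than in every NCD sample, with log2 fold changes of -1.71 (adjusted p = 0.194) and -0.87 (adjusted p = 0.999).

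For 7 general neuron genes the median was 0.05, from -0.27 (*Map2*) to 0.22 (*Elavl4*), with *Snap25* as the most abundant (572 FPKM). For 8 astrocyte genes it was 0.01, from -0.29 (*Aldh1l1*) to 0.88 (*Gfap*), with *Aldoc* as the most abundant (728 FPKM). For 6 oligodendrocyte genes it was -0.14, with *Mobp* at 0.10 and *Mbp* as the most abundant (887 FPKM). The 6 microglia genes had a median of 0.03, from -0.12 (*Cx3cr1*) to 0.46 (*C1qa*, also the most abundant at 45.8 FPKM). In the vascular lists, 5 endothelial genes had a median of -0.02, from -0.48 (*Cldn5*, the most abundant at 29.3 FPKM) to 0.31 (*Cdh5*), and 6 mural genes had a median of -0.11, with *Acta2* lowest at -0.83, *Rgs5* highest and *Vtn* as the most abundant (39.6 FPKM). The endothelial sum was 128, 124 and 96.6 CPM in NCD1 to NCD3 and 99.3, 101 and 111 CPM in HFD1 to HFD3, and the mural sum 267, 266 and 201 CPM in NCD1 to NCD3 and 234, 258 and 203 CPM in HFD1 to HFD3. The part of vascular cells in the levels of *Vim* and *Nes* was not tested.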
